A study of Homo sapiens with 6 samples.

Results

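The transcription factor NRF2 (gene NFE2L2), its repressor KEAP1 and 7 of its antioxidant target genes (NQO1, HMOX1, GCLC, GCLM, TXNRD1, SRXN1 and AKR1C1) were followed in MCF12A cells with and without miR-424. The 9 genes were taken by symbol from the 24294 loci of the expression table, and each was found in 1 locus that carried no other symbol. MCF12A is an immortalized, non-tumorigenic human mammary epithelial line, although the labels class it as a cancer line. Messenger RNA was sequenced from 3 samples of cells that stably over-expressed the microRNA and 3 samples of cells with the empty vector (EV), all grown for 48 hours. The promoter of the construct, and whether a group was 1 clone or a pool of cells, are not given in the sources. Values are FPKM, fragments scaled by transcript length and library size.

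NRF2 is held at a low level in unstressed cells, because KEAP1 binds it and brings it to a CUL3 ubiquitin ligase for degradation. Electrophiles and oxidants modify KEAP1, after which NRF2 accumulates, pairs with a small MAF protein and binds antioxidant response elements in front of its target genes. The targets make glutathione, reduce thioredoxin and sulfiredoxin substrates, and reduce quinones and carbonyls, and break down heme. Because this control acts largely on NRF2 protein, its mRNA does not report its activity.

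The over-expressed microRNA is read from the sequence of its mature 5p strand, from RefSeq (GRCh38.p14, chrX:134546680-134546701, minus strand). Capitals mark the seed, which pairs with target RNAs and is shared with miR-15a, miR-15b, miR-16, miR-195, miR-497 and miR-6838.
hsa-miR-424-5p: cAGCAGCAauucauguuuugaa

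The 7 bases complementary to the seed, TGCTGCT, were searched in the longest annotated 3′ UTR of each gene (GENCODE 29, GRCh38). They were found 1 time each in GCLC and SRXN1 and not in the other 7 genes, so that 2 of 9 genes (22.2%) held a match, beside 25.1% of the 10060 tested genes with a 3′ UTR. The GCLC match begins at base 862 of a UTR of 1415 bases and the SRXN1 match at base 988 of 2099. Neither is followed by an A. A pair of matches was found in BTRC, the gene of a substrate receptor that brings NRF2 to a ubiquitin ligase independently of KEAP1. It is shown for comparison because its mRNA fell (below), and both of its matches are followed by an A. Capitals mark the match.
GCLC, chr6:53497877-53497906, minus strand: tgttattctgatTGCTGCTgtatacagttt
SRXN1, chr20:647709-647738, minus strand: acagggcagttcTGCTGCTcacacctggga
BTRC, chr10:101553327-101553356, plus strand: tgactgcttcagTGCTGCTatcagaagatg
BTRC, chr10:101555270-101555299, plus strand: ctttctgtcataTGCTGCTattacaaagtg

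Promoter windows (250 bases before to 50 after an annotated start, RefSeq, GRCh38.p14) were present for 8 of the 9 genes. HMOX1 had no window and was not searched. The core of the antioxidant response element was searched as TGACNNNGC on both strands; its TGAC end also occurs in AP-1 and cyclic AMP response elements. It was found in KEAP1, GCLM and TXNRD1, that is 3 of 8 genes (37.5%) and 4 of 11 windows (36.4%). Beside this stand 19.4% of 8235 tested genes, 14.4% of their 12088 windows and 13.3% of all 35116 windows. For each gene 1 match is shown in capitals, where it reads GCNNNGTCA, the motif on the other strand; these matches were chosen after they were seen, for their likeness. KEAP1 holds 1 further match and TXNRD1 2, at its other start.
KEAP1, chr19:10502769-10502828, minus strand: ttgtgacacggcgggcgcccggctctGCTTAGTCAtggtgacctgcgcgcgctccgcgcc
GCLM, chr1:93909431-93909490, minus strand: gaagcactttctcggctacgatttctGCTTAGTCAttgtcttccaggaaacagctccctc
TXNRD1, chr12:104286904-104286963, plus strand: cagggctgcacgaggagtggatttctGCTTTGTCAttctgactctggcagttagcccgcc
The last base of the match lies 23, 26 and 94 bases before the annotated start in KEAP1, GCLM and TXNRD1. A match describes the letters of the window and does not show binding. Bases outside the windows were not searched, so a gene without a match here may hold the motif elsewhere.

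The locus that carries the microRNA (MGC16121/MIR424) was at 0.989 to 1.27 FPKM in EV cells and at 107, 106 and 224 FPKM in the miR-424 libraries. Among the 11574 loci whose mean reached 1 FPKM, limma on log2(FPKM + 1) called 144 (1.24%) higher and 731 (6.32%) lower with miR-424, at a threshold of 0.05 after Benjamini-Hochberg adjustment. Of 14 mammary epithelial markers 10 reached 1 FPKM, led by KRT8 and KRT18, whereas CDH1, the gene of E-cadherin, averaged 0.0228 and 0.0183 FPKM in EV and miR-424 cells and TP63 0.133 and 0.172 FPKM. The summed markers, dominated by KRT8 and KRT18, ran from 403 to 418 FPKM in EV and 375 to 398 FPKM in miR-424 cells. Within the list KRT5 fell from 63.7 ± 2.27 to 40.7 ± 3.22 FPKM and ITGB4 from 14.9 ± 0.396 to 10.4 ± 0.692 FPKM, and KRT14 rose from 2.25 ± 0.241 to 4.36 ± 0.799 FPKM (SD, n = 3; adjusted p = 0.00415, 0.00655 and 0.0165, limma). The calls of KRT5 and ITGB4 held in 16 and 14 of 16 alternatives, and that of KRT14 in 11 of 15. The part of such marker changes in the results below was not tested. Of 8 fibroblast markers 2 (DCN and COL1A1, the latter called higher by 0.21, adjusted p = 0.0456, limma), of 8 leukocyte markers 2 (CD68 and LYZ) and of 6 endothelial markers 0 reached 1 FPKM. These 3 lists summed to 157 to 167, 56.6 to 59.5 and 0.358 to 0.390 FPKM in EV cells and to 164 to 186, 54.8 to 60.8 and 0.304 to 0.374 FPKM in miR-424 cells; PDGFRA and PTPRC were under 0.1 FPKM. The fibroblast sum was mostly DCN, with means of 120 and 130 FPKM in EV and miR-424 cells, and COL1A1, with 39.0 and 45.2 FPKM. The leukocyte sum was mostly CD68, with 55.9 and 54.7 FPKM. Fewer cells of a kind and less RNA per cell cannot be told apart in these bulk libraries.

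miR-424 replicate 3 stood apart from the other libraries. Its median absolute log2 difference was 0.142 from replicate 1 and 0.152 from replicate 2, which differed by 0.0408 from each other, and EV libraries differed by 0.0357 to 0.0417. Against the EV mean, loci of transcripts under 40% GC had medians of 0.07 and 0.09 in replicates 1 and 2 and -0.22 in replicate 3, and loci over 60% GC had -0.09, -0.12 and -0.05. The differences between replicates therefore ran with base composition. Replicate 3 also had the highest level of the microRNA locus, 224 FPKM beside 107 and 106 FPKM in replicates 1 and 2. How the level of the locus relates to the trend on GC content was not tested. The changes of the 9 genes and the counts of calls are also given with the trend on GC content removed from each library. They are given without replicate 3 too, which leaves out the library with the most of this locus.

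The 9 genes covered a wide range of levels, and the order of the group means was the same in EV and miR-424 cells. TXNRD1, the cytosolic thioredoxin reductase, was the most abundant with a mean of 199 FPKM over the 6 libraries, at percentile 97.5 of the tested loci. NQO1, a quinone reductase, followed with 86.3 FPKM. NFE2L2 (44.2 FPKM) and SRXN1 (41.8 FPKM) came next, and their libraries overlapped. KEAP1 stood at 36.7 FPKM, the glutamate-cysteine ligase subunits GCLM and GCLC at 28.0 and 23.7 FPKM with overlapping libraries, and AKR1C1 at 13.4 FPKM. HMOX1, the inducible heme oxygenase, was the lowest at 5.31 FPKM, at percentile 30.3. All other neighbours in this order had no overlapping libraries.

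**Figure D1:**
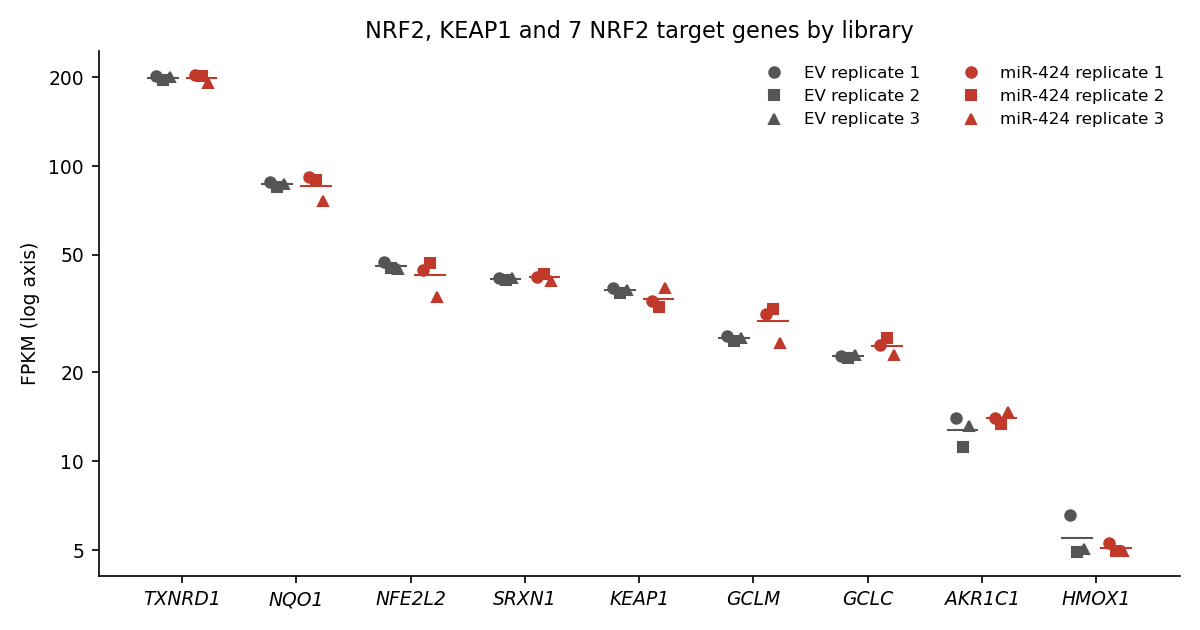
FPKM (log axis) of the 9 genes in each library, in the order of their mean level; circles, squares and triangles are replicates 1, 2 and 3, grey EV and red miR-424, and each line is a group mean. The groups overlap for 8 of 9 genes, and the triangle of miR-424 replicate 3 lies highest of its group for KEAP1 and AKR1C1 and lowest for the other 7 genes.

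None of the 9 genes passed the test with all libraries as deposited (limma, 0 called higher and 0 lower, and 0 with an unadjusted p under 0.05, which 23.6% of all tested loci had). In 4 genes the log2 change was positive and in 5 negative, beside 3674 positive and 7900 negative over all tested loci. The changes ran from -0.11 to 0.18, with a median absolute value of 0.095 beside 0.077 over all tested loci. The groups did not overlap for 1 gene, GCLC, which was higher in miR-424 cells; over all loci this was so for 6.59% higher and 26.9% lower. Since no label tells whether the samples came from separate lines, the p-values reflect the spread of these samples alone, and that spread may be technical.

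NFE2L2 (chromosome 2, 178095030 to 178129859, hg19) was at 47.5, 45.2 and 44.7 FPKM in EV replicates 1, 2 and 3 and at 44.6, 47.0 and 36.1 FPKM in miR-424 replicates 1, 2 and 3. Replicates 1 and 2 lay within or next to the EV range, and replicate 3 lay under all other libraries. The group means were 45.8 ± 1.47 and 42.6 ± 5.74 FPKM (SD, n = 3 each), and the log2 change was -0.11 ± 0.10 (SE) with a 95% confidence interval from -0.34 to 0.12 (limma, Benjamini-Hochberg adjusted p = 0.550). Without replicate 3 the interval narrowed to -0.08 to 0.08, and with the GC trend removed the change was -0.08 (adjusted p = 0.332, limma). In replicate 3 the log2 difference of NFE2L2 from the EV mean was -0.34, where 2017 loci of like GC content (within 2 percentage points of its 42.7%) had a median of -0.15.

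KEAP1 (chromosome 19, 10596795 to 10614054) had 38.7, 37.2 and 37.9 FPKM in EV replicates 1, 2 and 3 and 34.8, 33.3 and 38.5 FPKM in the miR-424 replicates. Replicates 1 and 2 were under all EV libraries, and replicate 3 was within their range. The log2 change was -0.10 ± 0.06 (SE; Benjamini-Hochberg adjusted p = 0.385, limma), with an interval from -0.23 to 0.04. Without replicate 3 KEAP1 was called lower, by -0.15 ± 0.03 (SE; adjusted p = 0.00609, limma). Its transcripts are rich in GC (60.6%), and 1257 loci of like GC had medians of -0.07 and -0.10 in miR-424 replicates 1 and 2, where KEAP1 had -0.12 and -0.18. With the GC trend removed the change without replicate 3 was -0.06 (adjusted p = 0.0706, limma) and with all libraries -0.02 (adjusted p = 0.826). The ratio of NFE2L2 to KEAP1 FPKM was 1.23, 1.21 and 1.18 in the EV replicates and 1.28, 1.41 and 0.938 in the miR-424 replicates, so that replicate 3 was the only library of the 6 in which KEAP1 exceeded NFE2L2.

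The subunits of glutamate-cysteine ligase, which carries out the rate-limiting step of glutathione synthesis, had positive changes. GCLM (chromosome 1, 94352589 to 94375012), the modifier subunit, was at 26.5, 25.5 and 26.1 FPKM in EV replicates 1, 2 and 3. In the miR-424 replicates it was at 31.5, 32.8 and 25.2 FPKM. The former pair lay above and replicate 3 below all EV libraries. The change was 0.18 ± 0.10 (SE; Benjamini-Hochberg adjusted p = 0.316, limma) with an interval from -0.05 to 0.41. GCLC (chromosome 6, 53362139 to 53409927), the catalytic subunit, was at 22.8, 22.4 and 23.0 FPKM in EV and at 24.7, 26.2 and 23.0 FPKM in miR-424 replicates 1, 2 and 3. Its groups were separated by only 0.0084 FPKM, between EV replicate 3 (22.968) and miR-424 replicate 3 (22.976). The change was 0.11 ± 0.05 (SE; adjusted p = 0.281, limma) with an interval from -0.02 to 0.24. The ratio of GCLM to GCLC was 1.14 to 1.16 in EV libraries and 1.28, 1.25 and 1.10 in miR-424 replicates 1, 2 and 3.

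Both ligase genes were called higher without replicate 3 and with the GC trend removed, and GCLC also with median-of-ratios scaling of all 6 libraries (0.18; adjusted p = 0.0439, limma), where GCLM had 0.25 (adjusted p = 0.0843). Without replicate 3 the changes were 0.29 ± 0.03 for GCLM and 0.16 ± 0.03 for GCLC (SE; limma, adjusted p = 0.00055 and 0.00742). GCLM transcripts are poor in GC (37.3%), and 1071 loci of like GC had medians of 0.07, 0.08 and -0.22 in miR-424 replicates 1, 2 and 3, where GCLM had 0.27, 0.32 and -0.05. GCLC (44.4% GC) had 0.12, 0.20 and 0.01, beside medians of 0.02, 0.02 and -0.13 of 1887 loci. Each ligase gene was above the median of loci of like GC in all 3 miR-424 libraries, as were SRXN1 and AKR1C1. All 3 differences are taken from the same EV mean, and the share of all loci for which this holds was not counted. With the GC trend removed and all libraries kept, the change was 0.20 ± 0.03 for GCLM (adjusted p = 0.00866) and 0.14 ± 0.03 for GCLC (adjusted p = 0.0315; SE, limma). With replicate 3 also left out the values were 0.22 and 0.14 (adjusted p = 0.00165 and 0.0137, limma). Over 16 alternatives GCLM passed in 3 and GCLC in 4, and the adjusted p ran from 0.00055 to 0.579 and from 0.00742 to 0.568.

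**Figure D2:**
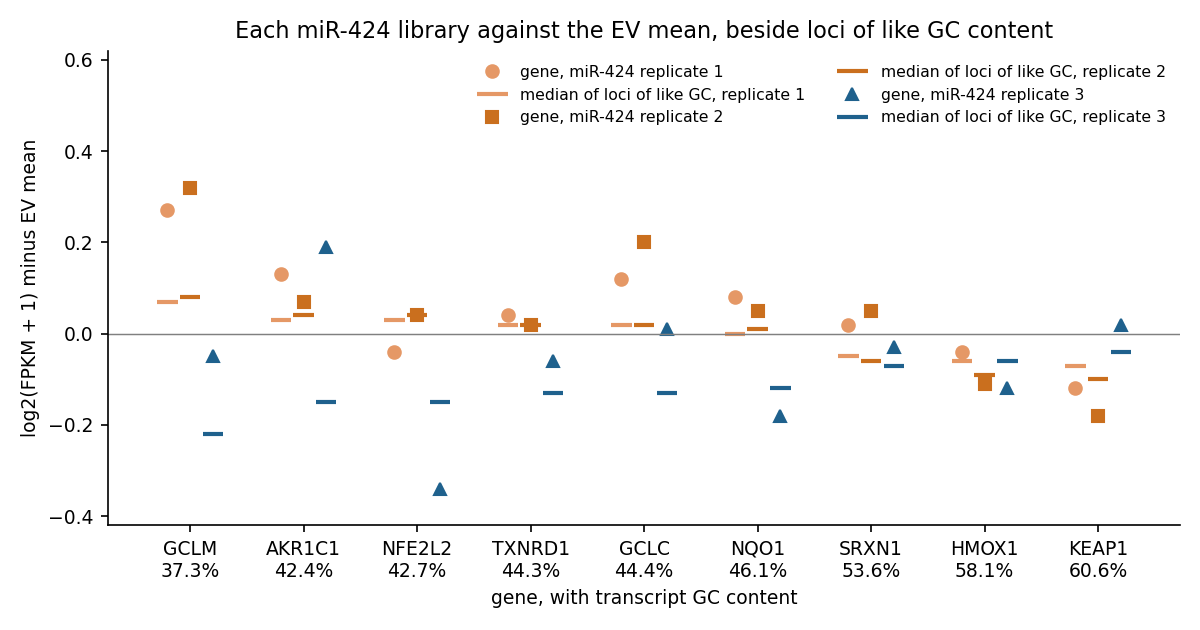
log2(FPKM + 1) of each gene in each miR-424 library minus the EV mean (symbols) beside the median of tested loci within 2 percentage points of its transcript GC content (lines), with genes ordered by GC content. GCLM, GCLC, SRXN1 and AKR1C1 lie above the line of every replicate, NFE2L2 lies far below it in replicate 3 (-0.34 against -0.15), and the lines of replicate 3 rise with GC content while those of replicates 1 and 2 fall.

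Of the remaining targets, the enzymes of the thioredoxin branch had the narrowest intervals. TXNRD1 (chromosome 12, 104609556 to 104744085) was at 202, 195 and 201 FPKM in EV replicates 1, 2 and 3 and at 204, 202 and 191 FPKM in the miR-424 replicates. The ratio of group means was 0.999 and the interval of the log2 change ran from -0.10 to 0.09 (limma, Benjamini-Hochberg adjusted p = 0.982). The change was 0.03 both without replicate 3 and with the GC trend removed (adjusted p = 0.337 and 0.624, limma). A further gene, EID3, overlaps the TXNRD1 locus and has its own entry, with a mean of 0.494 FPKM. SRXN1, sulfiredoxin, which repairs over-oxidized peroxiredoxins (chromosome 20, 627267 to 633890), was at 41.8, 41.2 and 41.8 FPKM in EV and 42.1, 43.2 and 40.8 FPKM in miR-424 replicates 1, 2 and 3. miR-424 replicates 1 and 2 lay above and replicate 3 below all EV libraries, and the interval was -0.08 to 0.10 (adjusted p = 0.882, limma). It had 0.03 without replicate 3 and 0.07 with the GC trend removed (adjusted p = 0.247 and 0.157, limma), and passed in 1 of 16 alternatives, with the GC trend removed and replicate 3 left out (0.09 ± 0.02, SE; adjusted p = 0.0226, limma).

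NQO1 (chromosome 16, 69743303 to 69760533) was at 88.5, 85.0 and 86.7 FPKM in EV replicates 1, 2 and 3. In the miR-424 replicates it was at 91.6, 89.8 and 76.3 FPKM. The former pair stood above all EV libraries and replicate 3 below them, and the change was -0.02 ± 0.07 (SE; Benjamini-Hochberg adjusted p = 0.914, limma). HMOX1 (chromosome 22, 35777059 to 35790207) had 6.56, 4.94 and 5.06 FPKM in EV replicates 1, 2 and 3 and 5.31, 4.99 and 4.96 FPKM in the miR-424 replicates. EV replicate 1 stood apart while the other 5 libraries lay between 4.94 and 5.31 FPKM. The change of HMOX1 was -0.09 ± 0.10 (SE; adjusted p = 0.641, limma) and 0.02 without EV replicate 1 (adjusted p = 0.915, limma). It was -0.08 without miR-424 replicate 3 and -0.02 with the GC trend removed (adjusted p = 0.587 and 0.908, limma). NQO1 had 0.06 and 0.02 in these settings (adjusted p = 0.0713 and 0.834, limma).

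AKR1C1 (chromosome 10, 5005453 to 5020158), an aldo-keto reductase that reduces steroids and carbonyls, was at 14.0, 11.2 and 13.2 FPKM in EV replicates 1, 2 and 3. It was at 14.0, 13.4 and 14.7 FPKM in the miR-424 replicates. EV replicate 2 was the lowest library, and the groups overlapped. Unlike most of the genes it was highest in miR-424 replicate 3, 0.19 above the EV mean where 2020 loci of like GC (42.4%) had a median of -0.15. The change was 0.13 ± 0.08 (SE; Benjamini-Hochberg adjusted p = 0.416, limma), with an interval from -0.07 to 0.33. It was 0.10 without miR-424 replicate 3 and 0.16 with the GC trend removed (adjusted p = 0.386 and 0.369, limma), and AKR1C1 passed in 0 of 16 alternatives. The value is uncertain because the gene has close paralogs: of the 923 stretches of 50 bases in its coding sequence of 972 bases, 51.8% also occur in transcripts of AKR1C2, 14.6% in AKR1C3 and 6.07% in AKR1C4 (GENCODE 29). AKR1C2 was at 8.78, 7.56 and 8.27 FPKM in EV replicates 1, 2 and 3, and AKR1C3 at 14.9, 12.2 and 13.2 FPKM, and in the miR-424 replicates they were at 8.22, 7.08 and 8.14 FPKM and 14.1, 12.7 and 13.9 FPKM. Replicate 2 was the lowest library of each group for all 3 paralogs. The log2 changes of AKR1C2 and AKR1C3 were -0.06 and 0.02 (adjusted p = 0.681 and 0.929, limma).

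The counts of calls can be set side by side. Without miR-424 replicate 3, 2 of 9 genes (GCLC and GCLM) were called higher and 1 (KEAP1) lower, beside 14.9% and 22.2% of all loci. With the GC trend removed and all libraries kept, 2 (GCLC and GCLM) were called higher and 0 lower, beside 5.87% and 7.29% of all loci. With both changes, 3 (GCLC, GCLM and SRXN1) were called higher and 0 lower, beside 14.4% and 15.0%. The median log2 change of the 9 genes was -0.002 as deposited, 0.034 without replicate 3 and 0.030 with the GC trend removed, and over all tested loci it was -0.047, -0.018 and 0.002.

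**Figure D3:**
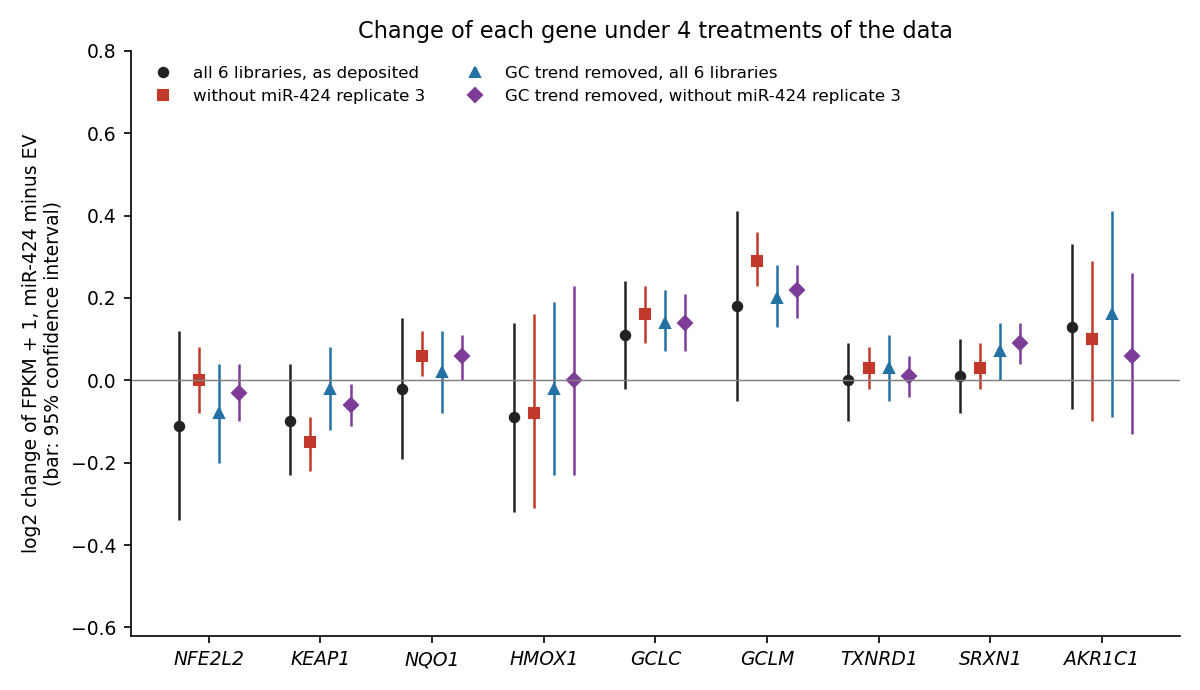
log2 change of FPKM + 1 (miR-424 minus EV) of each gene with its 95% confidence interval under 4 ways of treating the values. All intervals of GCLM and GCLC lie above 0 except with all libraries as deposited (black). KEAP1 lies below 0 without miR-424 replicate 3 (-0.15) and with the GC trend also removed (-0.06). NQO1 lies above 0 without replicate 3 (0.01 to 0.12) and SRXN1 with the GC trend also removed (0.04 to 0.14). Of these, KEAP1 at -0.06 and NQO1 did not pass after adjustment (adjusted p = 0.0706 and 0.0713, limma). NFE2L2, HMOX1, TXNRD1 and AKR1C1 include 0 throughout.

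A wider list held 114 genes of the NRF2 pathway and of redox metabolism, all found in the table (WDR23 under the later symbol DCAF11), of which 97 were tested. Of these 0 were called higher and 11 lower, beside 1.24% and 6.32% of all loci, and 21 had an unadjusted p under 0.05, beside 23.6% of all loci. Their median log2 change was -0.029, against -0.047 over all tested loci. Without EV replicate 1, 2 or 3 only 1 gene was called lower each time, beside 77, 79 and 84 of all loci (731 with all libraries). Without miR-424 replicate 1 or 2 the numbers were 4 and 2, beside 280 and 365 of all loci. Without miR-424 replicate 3 they were 13 higher and 30 lower, beside 14.9% and 22.2% of all loci. With the GC trend removed 9 were called higher and 10 lower, beside 5.87% and 7.29% of all loci.

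Among 18 tested partners and repressors of NRF2, 2 were called lower and 0 higher, beside 6.32% and 1.24% of all loci. Of the 18 changes 8 were positive and 10 negative, beside 3674 positive and 7900 negative over all tested loci. In the groups below a gene that fell is one called lower, and no group was tested as a set. BTRC, whose protein beta-TrCP recognizes phosphorylated NRF2, was at 3.77, 3.79 and 3.65 FPKM in EV replicates 1, 2 and 3 and at 2.41, 2.62 and 2.55 FPKM in the miR-424 replicates. The groups were well apart, with a log2 change of -0.43 ± 0.04 (SE; Benjamini-Hochberg adjusted p = 0.00467, limma), and BTRC passed in all 15 alternatives in which it was tested (adjusted p up to 0.0461). NFE2L1, which encodes the related factor NRF1, went from 51.9 ± 0.444 to 41.9 ± 0.633 FPKM (SD, n = 3; adjusted p = 0.00631, limma). CUL3, the scaffold of the KEAP1 ligase, was at 11.6, 11.5 and 11.8 FPKM in EV and at 12.2, 12.3 and 11.6 FPKM in miR-424 replicates 1, 2 and 3 and did not pass (adjusted p = 0.589, limma).

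Glutathione genes other than the ligase included 1 fall among 18 tested, beside 6.32% of all loci called lower. SLC3A2, the heavy chain of the cystine transporter, fell from 123 ± 2.25 to 105 ± 2.56 FPKM (SD, n = 3; limma, Benjamini-Hochberg adjusted p = 0.0177). It also serves other amino acid transporters. Among 13 thioredoxin and peroxiredoxin genes 2 fell. These were the mitochondrial thioredoxin TXN2 (34.6 ± 1.10 to 28.4 ± 1.65 FPKM) and the sestrin SESN2 (7.75 ± 0.290 to 5.86 ± 0.444 FPKM), the latter also a target of p53 and ATF4. Of 4 tested genes of superoxide and peroxide removal 1 fell, the mitochondrial superoxide dismutase SOD2 (175, 160 and 161 FPKM in EV and 142, 134 and 128 FPKM in miR-424 replicates 1, 2 and 3), which is also induced by NF-kB.

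Of 12 quinone, carbonyl and xenobiotic genes 3 fell, beside 6.32% of all loci called lower. CBR3, a carbonyl reductase, went from 7.93, 8.02 and 8.08 FPKM in EV replicates 1, 2 and 3 to 4.99, 4.80 and 6.31 FPKM in the miR-424 replicates. ALDH3A1, an aldehyde dehydrogenase, went from 5.01, 4.97 and 5.15 FPKM to 2.87, 2.78 and 3.98 FPKM. In both genes replicate 3 was the nearest to the EV libraries but did not reach them, and the log2 changes were -0.51 ± 0.09 and -0.53 ± 0.11 (SE; Benjamini-Hochberg adjusted p = 0.0213 and 0.0315, limma). CYP4F11 was low, at 1.76 ± 0.0230 and 1.42 ± 0.0689 FPKM (SD, n = 3; adjusted p = 0.0482, limma), and passed in 4 of 15 alternatives. Of 5 efflux transporters 1 fell, ABCC2 (29.5 ± 0.398 to 24.9 ± 0.956 FPKM).

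In 6 genes of NADPH supply and 8 of iron and heme handling 0 passed the limma test, with 2 of each having an unadjusted p under 0.05 (23.6% of all loci). The most abundant of these were the pentose phosphate enzymes TKT (338 ± 5.01 and 313 ± 14.7 FPKM) and TALDO1 (83.3 ± 0.591 and 87.3 ± 2.01 FPKM), and the ferritin chains FTH1 (2970 ± 64.1 and 2900 ± 285 FPKM) and FTL (2030 ± 65.2 and 2250 ± 31.2 FPKM; EV and miR-424, SD, n = 3). Without miR-424 replicate 3 TKT and FTH1 were called lower (-0.15 and -0.11) and FTL higher (0.16; adjusted p = 0.00171, 0.0282 and 0.00503, limma). TALDO1 and FTL were called higher with the GC trend removed (0.13 and 0.21; adjusted p = 0.0268 and 0.0245, limma). Of 13 other genes listed as NRF2 targets 1 fell, FAM84A (1.23 ± 0.0906 to 0.855 ± 0.0487 FPKM), beside 6.32% of all loci called lower. The calls differed in how often they held: NFE2L1 passed in 13, SESN2, SOD2 and ABCC2 in 11, SLC3A2 and CBR3 in 9 and TXN2 in 8 of 16 alternatives, and FAM84A in 8 and ALDH3A1 in 7 of 15. Without miR-424 replicate 3 all 11 were called lower, with changes from -0.66 (ALDH3A1) to -0.21 (ABCC2 and CYP4F11). Removal of the GC trend left 10 of them called, from -0.46 (ALDH3A1) to -0.15 (SLC3A2), and CYP4F11 had -0.14 (adjusted p = 0.0881, limma).

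**Figure D4:**
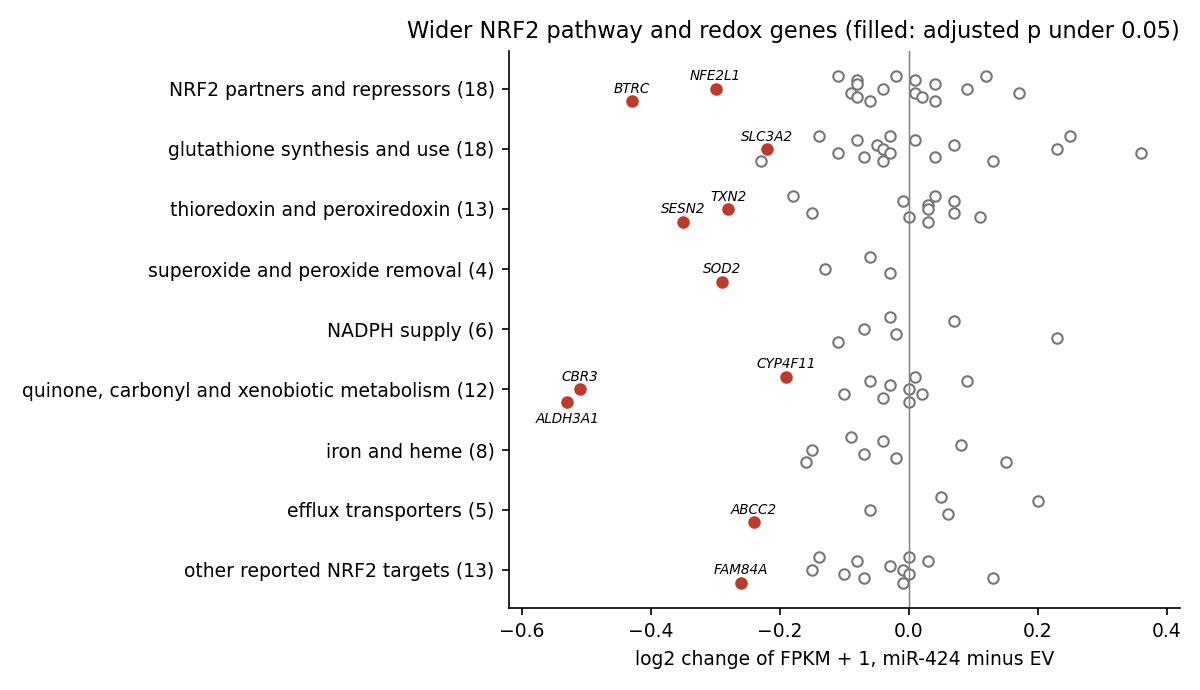
log2 change of FPKM + 1 (miR-424 minus EV) of the 97 tested genes of the wider list by group, with the number tested in brackets; filled points passed the test with all libraries as deposited. The 11 filled points all lie below 0, and ALDH3A1, CBR3 and BTRC lie farthest from it.

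Matches to the miR-424 seed were counted in the 3′ UTRs of the 11 genes that fell. They were present in 5 (45.5%): BTRC, TXN2, SESN2 and SOD2, each with 2, and CBR3 with 1. Of all 649 genes called lower that had a 3′ UTR 37.0% held a match, and of all tested genes 25.1%. In the wider list 23 of the 97 tested genes (23.7%) held one, whether called or not. The median 3′ UTR was 1510 bases in the 11 genes, 1009 in all genes called lower and 1391 in all tested genes. The relation of matches to the falls was not tested. GCLC, which holds 1, and SRXN1, which holds 1, were not called lower in any setting.

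The loci most like NFE2L2 over the 6 libraries, among 8304 others whose mean reached 5 FPKM, were YY1 (Pearson r = 0.9993), IFNGR2 (0.9979) and ARHGAP5 (0.9977). Like NFE2L2, each was lowest in miR-424 replicate 3; YY1 was at 30.2, 28.8 and 28.5 FPKM in EV replicates 1, 2 and 3 and at 28.3, 30.2 and 22.5 FPKM in the miR-424 replicates. Among the other 8 genes described here, r to NFE2L2 was 0.90 for NQO1, 0.80 for TXNRD1, 0.70 for SRXN1, 0.44 for GCLM, 0.41 for HMOX1, 0.28 for GCLC, -0.38 for KEAP1 and -0.41 for AKR1C1. These values rest on 6 libraries, and NFE2L2 was lowest in 1 of them, miR-424 replicate 3. In that library KEAP1 and AKR1C1 were the highest of their group.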

How the data were processed

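The authors deposited 1 table of FPKM values, with 1 column per sample matched by title; per the submitters' processing notes the tools were TopHat 1.4.1, Cufflinks 1.3.0 and Cuffdiff, with hg19 (GRCh37), their roles unstated. The sources used here do not state read numbers, annotation or scaling, so depth is unknown and no counting interval is given. Values were taken as log2(FPKM + 1), which understates changes of low genes, and loci whose mean reached 1 FPKM were tested by limma 3.58.1 (R 4.3.3; prior variance with a trend, two-sided, Benjamini-Hochberg over all 11574 loci, threshold 0.05); the code was tested on simulated data. With 3 samples a group the smallest exact permutation p is 0.1, so none was computed. Named genes were all members, the locus of MIR424, in each group of the wider list up to 4 genes past the threshold or else the 2 most abundant, and the 3 loci most correlated with NFE2L2; BACH1 and other genes in the observations, CUL3 and the AKR1C paralogs were named after their values were seen. The members and lists were chosen with earlier results of these data known. Transcript GC content (GENCODE 29, by RefSeq accession or symbol) was found for 98.6% of tested loci; its trend was removed per library by lowess (span 0.3) of the deviation from the locus mean. This alternative was added after the data were seen. It also removes each library's overall shift and any true group difference that follows GC content. Strand use is unstated. The level of 1 marker gene is not reported here.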

Additional observations from a re-analysis of the deposited data

How the results depend on the processing

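The 16 alternatives changed the number of calls more than the direction of single genes. With median-of-ratios scaling 1 of the 9 genes was called higher, as were 3 of the wider list, with 6 lower; over all loci it gave 344 higher and 436 lower. Quantile normalization gave 1 higher and 7 lower in the wider list and 319 and 447 over all loci. A minimum mean of 5 FPKM, with fewer loci tested, gave 7 lower in the wider list and 468 over all loci. With the GC trend removed 2 of the 9 genes, 9 of the wider list and 679 of all loci were called higher. With miR-424 replicate 3 also left out these became 3, 20 and 1661, and 20 of the wider list and 1737 of all loci were called lower. Leaving out 1 library gave 0 to 2 of the 9 genes higher and 0 to 1 lower, 0 to 13 of the wider list higher and 1 to 30 lower, and 31 to 1728 of all loci higher and 77 to 2574 lower. Both upper ends came without miR-424 replicate 3. The causes of these differences were not tested. Another pseudocount, no filter on low values and no trend of the prior variance kept all counts within 1.5 times.

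The replicate numbers are shared by the groups but pair nothing by label. For each library the deviation from its own group mean was taken per locus, and these deviations, not the levels, were correlated between the groups. For same-numbered samples r was 0.0509, 0.152 and 0.127. The deviations of EV replicate 1 correlated best with those of miR-424 replicate 2 (0.0613). A fit with the replicate number as a block gave 79 higher and 270 lower over all loci, 5 lower in the wider list and 0 of the 9 genes.

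Among the named genes, 6 changed sign in some alternative, and none of the values with a turned sign passed the threshold. FTH1 itself passed without miR-424 replicate 3 (-0.11, adjusted p = 0.0282, limma) and with quantile normalization (-0.080, adjusted p = 0.0489, limma). NQO1 was at 0.049 with median-of-ratios scaling, 0.026 with quantile normalization, 0.017 with the GC trend removed and 0.057 with replicate 3 also left out; leaving out 1 library gave -0.067 to 0.063. TXNRD1 had 0.066, 0.024, 0.030 and 0.0077 in the same 4 settings, and ran from -0.022 to 0.027 without 1 library. HMOX1 was at 0.0012 with the GC trend removed and miR-424 replicate 3 left out, and ran from -0.15 to 0.021 without 1 library. FTH1 was at 0.032 with median-of-ratios scaling and 0.0098 with the GC trend removed, and ran from -0.11 to 0.024 without 1 library. NFE2L2 ran from -0.19 to 0.00048 and SRXN1 from -0.0059 to 0.034 without 1 library. Depth is unknown, so what it limits cannot be stated. FPKM values from 3 samples a group, with 1 library apart, set the width of the intervals.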

Other observations

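With the GC trend removed and all 6 libraries kept, 9 of the 97 tested genes of the wider list were called higher, beside 5.87% of all loci. In the same setting 10 were called lower, beside 7.29% of all loci. Those called higher, named here after their values were seen, were MAFG, BACH1, SQSTM1, SLC7A11, GPX3, TALDO1, ME1, FTL and ABCC3. SLC7A11, the light chain of the cystine transporter that feeds glutathione synthesis, was at 7.16, 7.08 and 7.39 FPKM in EV replicates 1, 2 and 3 and at 10.3, 10.5 and 8.03 FPKM in the miR-424 replicates. Its groups did not overlap, as was so with miR-424 higher for 6.59% of all loci. Its log2 change was 0.36 ± 0.09 as deposited (SE; limma, Benjamini-Hochberg adjusted p = 0.0685) and 0.38 with the GC trend removed (adjusted p = 0.00136, limma). Its partner chain SLC3A2 was called lower in the same setting, with -0.15 (adjusted p = 0.0243, limma). BACH1, a repressor that competes with NRF2 for its elements, was at 5.73, 5.94 and 5.73 FPKM in EV and at 7.28, 7.33 and 5.55 FPKM in miR-424 replicates 1, 2 and 3. ME1, an NADPH-producing malic enzyme, was at 18.5, 17.7 and 17.6 FPKM in EV and 23.0, 22.8 and 18.0 FPKM in miR-424 replicates 1, 2 and 3. Both had groups that overlapped as deposited (limma, adjusted p = 0.339 and 0.196). The part that GC content and replicate 3 have in these values was not tested beyond the alternatives given.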
